A study of Mus musculus with 8 samples.

Results

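Chemokines made by helper T cells are described here through 9 genes: Ccl1, Ccl3, Ccl4, Ccl5, Ccl9, Ccl22, Xcl1, Cxcl9 and Cxcl10. They were chosen by name, with earlier results of these data known. Each had exactly 1 probeset that the array annotation pairs with its symbol alone, so all 9 were measured among the 19938 genes of the table. Their levels were read on 8 Affymetrix arrays, 1 per culture, as log2 values made by the authors with RMA, a method that corrects background, equalises arrays and summarises probes. The 4 groups held 2 arrays each, which the labels call biological replicates: Th17 Tet2-/- cells, Th17 wild-type cells, Th1 Tet2-/- cells and Th1 wild-type cells. Tet2 converts methylated cytosines of DNA to oxidised forms.

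All groups started from naive CD4+ T cells of C57BL/6 mice, sorted as CD25-, CD62L high and CD44 low from spleen and lymph node, and all were stimulated through CD3 and CD28. Th17 cultures received TGF-β1 at 0.5 ng/ml, IL-6 at 10 ng/ml and antibodies that block interferon-γ and IL-4. Th1 cultures received IL-12 at 10 ng/ml, IL-2 at 30 U/ml and the antibody that blocks IL-4, with no block of interferon-γ. The parts that these agents play in a Th17 to Th1 difference cannot be told apart. Age and sex of the mice, how Tet2 was deleted, and whether IL-23 or IL-1β was added to the Th17 cultures are not given in the sources used here.

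Chemokines are small secreted proteins that bind seven-transmembrane receptors on other leukocytes and direct where those cells move. Activated T cells make Ccl3, Ccl4 and Ccl5, which recruit macrophages and other T cells through receptors such as Ccr1, and Xcl1, which draws dendritic cells that carry Xcr1. Cxcl9 and Cxcl10 are induced by interferons, mostly in macrophages and stromal cells, and bring in Th1 cells through Cxcr3. Ccl20, the ligand of Ccr6, is the chemokine most closely tied to Th17 cells.

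The 9 genes differed in how far their levels moved between the groups. The mean levels of the 4 groups spanned 2.96 log2 units for Ccl3, 2.39 for Ccl4, 1.96 for Ccl5, 1.28 for Xcl1 and 0.71 for Ccl1. The spans of the other members were 0.31 for Cxcl10, 0.20 for Ccl9, 0.17 for Ccl22 and 0.12 for Cxcl9. Of all 19938 genes, 99.9% had a smaller span than Ccl3 and 94.3% a smaller span than Ccl1, against 62.2% for Cxcl10 and 13.4% for Cxcl9. Ccl3, Ccl4, Ccl5 and Xcl1 read above the median probeset of the array on 8 of 8 arrays, Cxcl10 on 7 and Ccl1 on 6. Ccl9, Ccl22 and Cxcl9 read below it on all 8 arrays, and the table carries no detection call for them.

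**Figure D1:**
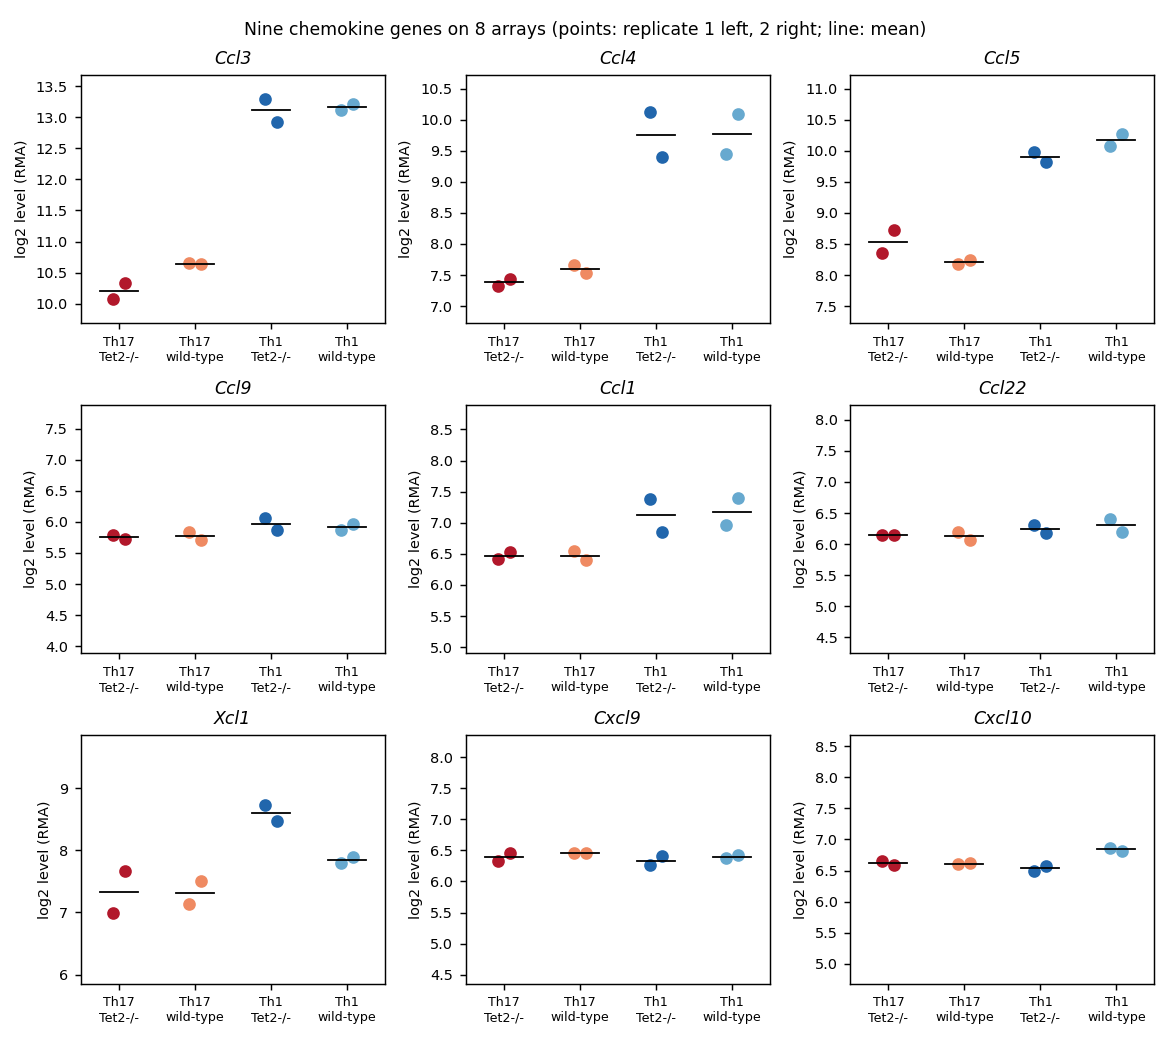
Log2 level (RMA) of each of the 9 chemokine genes on the 8 arrays, in Th17 Tet2-/-, Th17 wild-type, Th1 Tet2-/- and Th1 wild-type cells. Points are arrays (replicate 1 left, replicate 2 right) and lines are the means of 2. Each panel has its own axis position. Ccl3, Ccl4, Ccl5, Ccl1 and, by narrow margins, Xcl1 and Ccl9 sit lower on all 4 Th17 arrays than on all 4 Th1 arrays. Cxcl9 stays within 0.20 log2 units over all arrays.

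Arrays resembled each other closely, with medians of 6.47 to 6.53 and Pearson correlations across genes of 0.990 to 0.994 within groups and 0.977 to 0.995 between groups. T cell markers averaged 10.2 to 10.5 on every array. Th17 markers averaged 9.06 to 9.45 on Th17 arrays and 6.09 to 6.34 on Th1 arrays, and Th1 markers averaged 7.61 to 7.71 on Th17 arrays and 9.06 to 9.44 on Th1 arrays. Of the 6 Th1 markers 1, Il18r1, went the other way. It averaged 8.89 in Th17 against 8.00 in Th1 Tet2-/- cells, and 8.59 against 8.30 in wild-type cells. The probeset for Tet2 read 8.37 and 8.42 in Th17 Tet2-/- cells, against 8.53 and 8.51 in Th17 wild-type cells. It read 8.12 and 7.97 in Th1 Tet2-/- cells, against 8.14 and 8.03 in Th1 wild-type cells. Whether it lies in the deleted part is unknown, so these values are no check of the genotypes. The Th17 arrays differed in transcripts of the sex chromosomes: the mean of 3 Y-linked genes was 8.71 and 4.85 in Th17 Tet2-/- cells (Xist 8.62 and 11.3), against 8.80 and 7.82 in Th17 wild-type cells (Xist 5.20 and 10.1). On the 4 Th1 arrays the same Y-linked mean was 7.94 to 8.24 and Xist was 4.83 to 5.11.

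Of the 9 genes, 5 lie on chromosome 11. Ccl1 closes a run of Ccl2, Ccl7, Ccl11, Ccl12 and Ccl8, and farther along the order is Ccl5, Ccl9, Ccl6, Ccl3 and Ccl4, per the RefSeq gene table for GRCm38.p6. Cxcl9 and Cxcl10 are neighbours on chromosome 5, Xcl1 is on chromosome 1 and Ccl22 on chromosome 8. Promoters from RefSeq (GRCm38.p6), from 250 bases before to 50 bases after the start of the gene, were at hand for 7 of the 9 genes, with Ccl4 and Ccl5 missing. The promoters of Ccl3, Xcl1 and Ccl1 are shown because these genes were lower in Th17 cells, and that of Cxcl10 because it has the most motif matches of the 7. Capitals mark matches, on either strand, to the kB motif of NF-κB (GGG, any 5 bases, CC), the interferon response core (GAAA, any 2 bases, GAAA), the STAT motif (TTC, any 3 bases, GAA) or the AP-1 motif (TGA, any base, TCA).
Ccl3 promoter, chr11:83649329-83649628, minus strand: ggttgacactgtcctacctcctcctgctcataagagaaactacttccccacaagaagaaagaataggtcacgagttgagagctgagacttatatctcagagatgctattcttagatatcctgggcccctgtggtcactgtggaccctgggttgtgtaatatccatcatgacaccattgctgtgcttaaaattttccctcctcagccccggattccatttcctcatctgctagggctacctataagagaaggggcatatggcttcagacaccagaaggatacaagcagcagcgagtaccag
Xcl1 promoter, chr1:164935473-164935772, minus strand: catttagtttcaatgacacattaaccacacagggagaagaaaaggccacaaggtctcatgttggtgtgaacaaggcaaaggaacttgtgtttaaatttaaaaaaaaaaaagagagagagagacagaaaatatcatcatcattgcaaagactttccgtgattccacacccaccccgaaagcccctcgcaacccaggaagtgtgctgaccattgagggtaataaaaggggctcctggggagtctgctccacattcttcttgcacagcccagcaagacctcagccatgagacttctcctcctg
Ccl1 promoter, chr11:82179763-82180062, minus strand: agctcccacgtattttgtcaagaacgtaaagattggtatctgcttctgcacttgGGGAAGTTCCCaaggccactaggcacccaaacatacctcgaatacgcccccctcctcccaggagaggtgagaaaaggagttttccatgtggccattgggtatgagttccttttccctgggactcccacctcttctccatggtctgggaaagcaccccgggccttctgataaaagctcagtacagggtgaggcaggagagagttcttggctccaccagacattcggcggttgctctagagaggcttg
Cxcl10 promoter, chr5:92348840-92349139, minus strand: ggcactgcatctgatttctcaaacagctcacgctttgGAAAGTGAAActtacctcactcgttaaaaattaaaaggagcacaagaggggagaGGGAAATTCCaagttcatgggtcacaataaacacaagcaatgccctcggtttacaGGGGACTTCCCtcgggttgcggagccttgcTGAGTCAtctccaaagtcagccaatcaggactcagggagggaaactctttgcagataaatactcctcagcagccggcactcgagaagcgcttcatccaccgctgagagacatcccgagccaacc
The Ccl3 and Xcl1 windows held none of the 4 motifs. In the Ccl1 window 2 overlapping kB matches covered -196 to -186, counted from the start site. In the Cxcl10 window the interferon response core lay at -213 to -204, kB matches at -159 to -150 and, overlapping each other, at -104 to -94, and the AP-1 match at -74 to -68. Over the 7 windows, 5 held a kB match, 3 an AP-1 match (Ccl9, Cxcl9 and Cxcl10), 1 the interferon response core and 0 the STAT motif. Of all 32851 promoters in the table, 50.8% held a kB match, 7.81% AP-1, 3.44% the interferon response core and 8.3% the STAT motif. A match describes the letters only.

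Th17 Tet2-/- cells had lower levels of 5 of the 9 chemokine genes than Th1 Tet2-/- cells: Ccl3, Ccl4, Ccl5, Xcl1 and Ccl1. A gene was called here at a limma adjusted p under 0.05 over all 19938 genes, and 3.29% of all genes were called lower in this comparison, 7.14% higher and 10.4% in either direction. None of the 9 was called higher. In wild-type cells, 4 of the 9 were called lower in Th17 than in Th1 cells (Ccl3, Ccl4, Ccl5 and Ccl1), against 3.17% of all genes, and none higher, against 5.3% of all genes (8.47% in either direction). The median log2 difference of the 9 was -0.65 in Tet2-/- and -0.53 in wild-type cells, beside -0.01 over all genes in each genotype. Since the 9 were picked with earlier results of these data known, these counts and medians are no test of the list. In a bulk culture, fewer cells that make a chemokine and less RNA per cell cannot be told apart. The labels do not say that replicates came from separate mice, so the p values measure the spread between these cultures.

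Ccl3 (MIP-1α), a ligand of Ccr1, differed most. It read 10.08 and 10.33 log2 units in Th17 Tet2-/- cells and 10.65 and 10.64 in Th17 wild-type cells. It read 13.29 and 12.93 in Th1 Tet2-/- cells and 13.11 and 13.21 in Th1 wild-type cells. All 4 Th17 arrays were far below all 4 Th1 arrays, and the Th17 Tet2-/- arrays were the lowest of all. In Tet2-/- cells it was 7.50-fold lower in Th17 than in Th1 (log2 difference -2.91, SE 0.146, limma adjusted p = 1.39e-07), the sixth lowest difference of the table. In wild-type cells it was 5.72-fold lower (-2.52, SE 0.146, limma adjusted p = 5.53e-07).

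Ccl4 (MIP-1β), the neighbour of Ccl3 on chromosome 11 and, like it, a chemokine that attracts macrophages and T cells, had a like profile. It read 7.33 and 7.44 in Th17 Tet2-/- cells and 7.67 and 7.53 in Th17 wild-type cells, against 10.12 and 9.39 in Th1 Tet2-/- cells and 9.45 and 10.09 in Th1 wild-type cells. The Th1 arrays of each genotype lay wide apart (SD 0.515 in Tet2-/- and 0.456 in wild-type cells), yet none came near a Th17 array. Ccl4 was 5.18-fold lower in Th17 than in Th1 Tet2-/- cells (-2.37, SE 0.227, limma adjusted p = 3.87e-05) and 4.51-fold lower in wild-type cells (-2.17, SE 0.227, limma adjusted p = 8.73e-05).

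Ccl5 (RANTES), which binds Ccr1 and Ccr3, read 8.35 and 8.72 in Th17 Tet2-/- cells and 8.19 and 8.24 in Th17 wild-type cells. It read 9.98 and 9.82 in Th1 Tet2-/- cells and 10.08 and 10.26 in Th1 wild-type cells. Both cultures separated without overlap, and among Th17 cells the Tet2-/- arrays were above the wild-type arrays. Th17 cells had 2.58-fold less than Th1 cells without Tet2 (-1.37, SE 0.145, limma adjusted p = 7.91e-05) and 3.89-fold less in wild-type cells (-1.96, SE 0.145, limma adjusted p = 4.64e-06).

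Xcl1 (lymphotactin) read 6.99 and 7.67 in Th17 Tet2-/- cells and 7.13 and 7.50 in Th17 wild-type cells. It read 8.72 and 8.46 in Th1 Tet2-/- cells and 7.79 and 7.89 in Th1 wild-type cells. The Th1 Tet2-/- arrays were the 2 highest, while the Th1 wild-type arrays lay just above the higher arrays of the Th17 groups. Xcl1 was 2.40-fold lower in Th17 than in Th1 Tet2-/- cells (-1.27, SE 0.198, limma adjusted p = 0.00143). In wild-type cells the difference was -0.53 (95% interval -0.96 to -0.10, limma adjusted p = 0.122) and was not called. It was -0.34 without Th17 wild-type replicate 1. The difference of these differences, -0.74 (95% interval -1.34 to -0.13), was not called either (limma adjusted p = 0.999).

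Ccl1, a T cell product that binds Ccr8, read 6.41 and 6.53 in Th17 Tet2-/- cells and 6.54 and 6.40 in Th17 wild-type cells. It read 7.38 and 6.85 in Th1 Tet2-/- cells and 6.96 and 7.40 in Th1 wild-type cells. The Th17 arrays lay close together and below every Th1 array, and the Th1 arrays were spread (SD 0.376 in Tet2-/- and 0.307 in wild-type cells). It was 1.57-fold lower in Th17 than in Th1 Tet2-/- cells (-0.65, SE 0.176, limma adjusted p = 0.0342) and 1.64-fold lower in wild-type cells (-0.71, SE 0.176, limma adjusted p = 0.0266). The Tet2-/- call was lost without Th17 Tet2-/- replicate 1 (limma adjusted p = 0.203) or 2 (0.0947) and without Th1 Tet2-/- replicate 1 (0.287, difference -0.38). The wild-type call was lost without Th17 wild-type replicate 1 (limma adjusted p = 0.0662) or 2 (0.172) and without Th1 wild-type replicate 2 (0.144, difference -0.49).

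**Figure D2:**
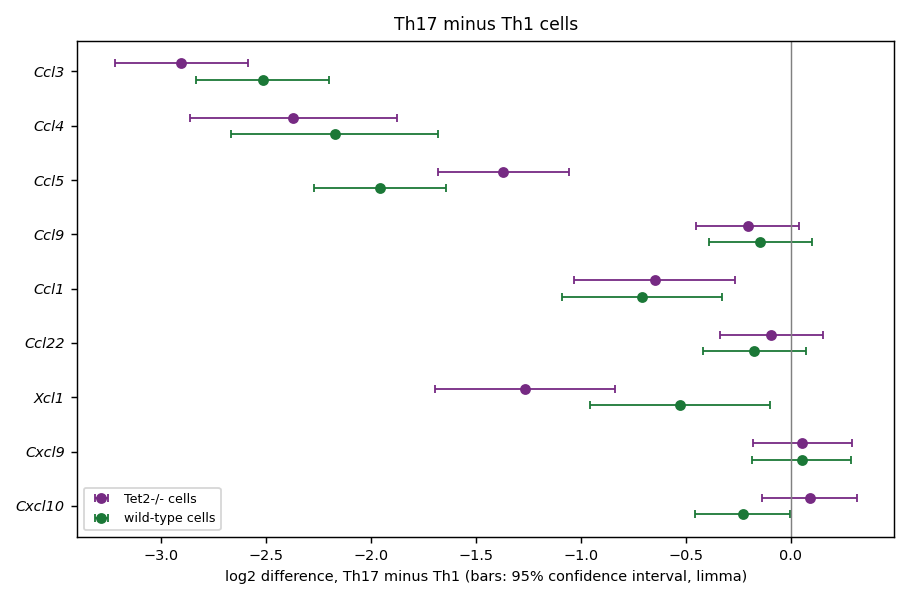
Log2 difference, Th17 minus Th1, of the 9 chemokine genes in Tet2-/- and in wild-type cells. Points are limma estimates from 2 arrays a group and bars are 95% confidence intervals. Ccl3, Ccl4 and Ccl5 lie at -1.37 or below in each genotype, and the intervals of Ccl9, Ccl22 and Cxcl9 cross 0 in each.

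The other 4 members passed the test in neither genotype. Ccl9, a Ccr1 ligand known from mouse macrophages, lies between Ccl5 and Ccl6 on chromosome 11. It read 5.79 and 5.73 in Th17 Tet2-/- cells and 5.84 and 5.71 in Th17 wild-type cells, against 6.06 and 5.86 in Th1 Tet2-/- cells and 5.87 and 5.97 in Th1 wild-type cells. Its Th17 minus Th1 difference was -0.20 in Tet2-/- cells (95% interval -0.45 to 0.04) and -0.14 in wild-type cells (-0.39 to 0.10). The next chemokine gene, Ccl6, read 5.56 to 5.75 on all 8 arrays, and was not called either (-0.05 in Tet2-/- and 0.06 in wild-type cells). Ccl9 and Ccl6 lie between Ccl5 and Ccl3, which were both called.

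Ccl22, a ligand of Ccr4 known mainly from dendritic cells and macrophages, read 6.15 on each array of Th17 Tet2-/- cells and 6.19 and 6.07 in Th17 wild-type cells, against 6.30 and 6.18 in Th1 Tet2-/- cells and 6.41 and 6.20 in Th1 wild-type cells. Its differences were -0.09 in Tet2-/- cells (95% interval -0.34 to 0.15) and -0.17 in wild-type cells (-0.42 to 0.07). The lowest and highest of its 8 arrays were both wild-type.

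Cxcl9 and Cxcl10, the interferon-induced ligands of Cxcr3, had small differences of unequal sign. Cxcl9 read 6.32 and 6.45 in Th17 Tet2-/- cells and 6.45 on each array of Th17 wild-type cells, against 6.26 and 6.41 in Th1 Tet2-/- cells and 6.37 and 6.43 in Th1 wild-type cells. Its difference was 0.06 in Tet2-/- cells (95% interval -0.18 to 0.29) and 0.05 in wild-type cells (-0.18 to 0.29). Cxcl10 read 6.66 and 6.59 in Th17 Tet2-/- cells and 6.60 and 6.62 in Th17 wild-type cells, against 6.49 and 6.57 in Th1 Tet2-/- cells and 6.87 and 6.81 in Th1 wild-type cells. The Th1 wild-type arrays were the 2 highest and the Th1 Tet2-/- arrays the 2 lowest. The difference of Cxcl10 was 0.09 in Tet2-/- cells (limma adjusted p = 0.66) and -0.23 in wild-type cells (95% interval -0.46 to -0.00, limma adjusted p = 0.202).

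In Tet2-/- cells the Th17 arrays lay wholly below the Th1 arrays for 7 of the 9 members and wholly above for 1, beside 27.6% of all genes below and 28.8% above (56.4% in all). In wild-type cells they lay below for 8 members and above for 1, beside 26.7% of all genes below and 25.2% above (51.9% in all). With 2 arrays against 2, separation without a call was common in the whole table.

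Other chemokine ligands were read beside the share of all genes called, 10.4% in Tet2-/- and 8.47% in wild-type cells. Of 29 other ligands 27 were measured, and 1, Ccl20, was called in each genotype. The median difference over the 27 was -0.05 in Tet2-/- and -0.15 in wild-type cells. Most of the 27 read low: in any group only 5 or 6 had a mean above the array median. Ccl20 read 8.27 and 7.75 in Th17 Tet2-/- cells against 7.25 and 6.88 in Th1 Tet2-/- cells, a rise of 0.95 (limma adjusted p = 0.00464). It read 9.09 and 8.96 in Th17 wild-type cells against 6.72 and 6.97 in Th1 wild-type cells, a rise of 2.18 (limma adjusted p = 1.05e-05). Ccl20 was therefore higher in Th17 cells in both genotypes, opposite to the called members.

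**Figure D3:**
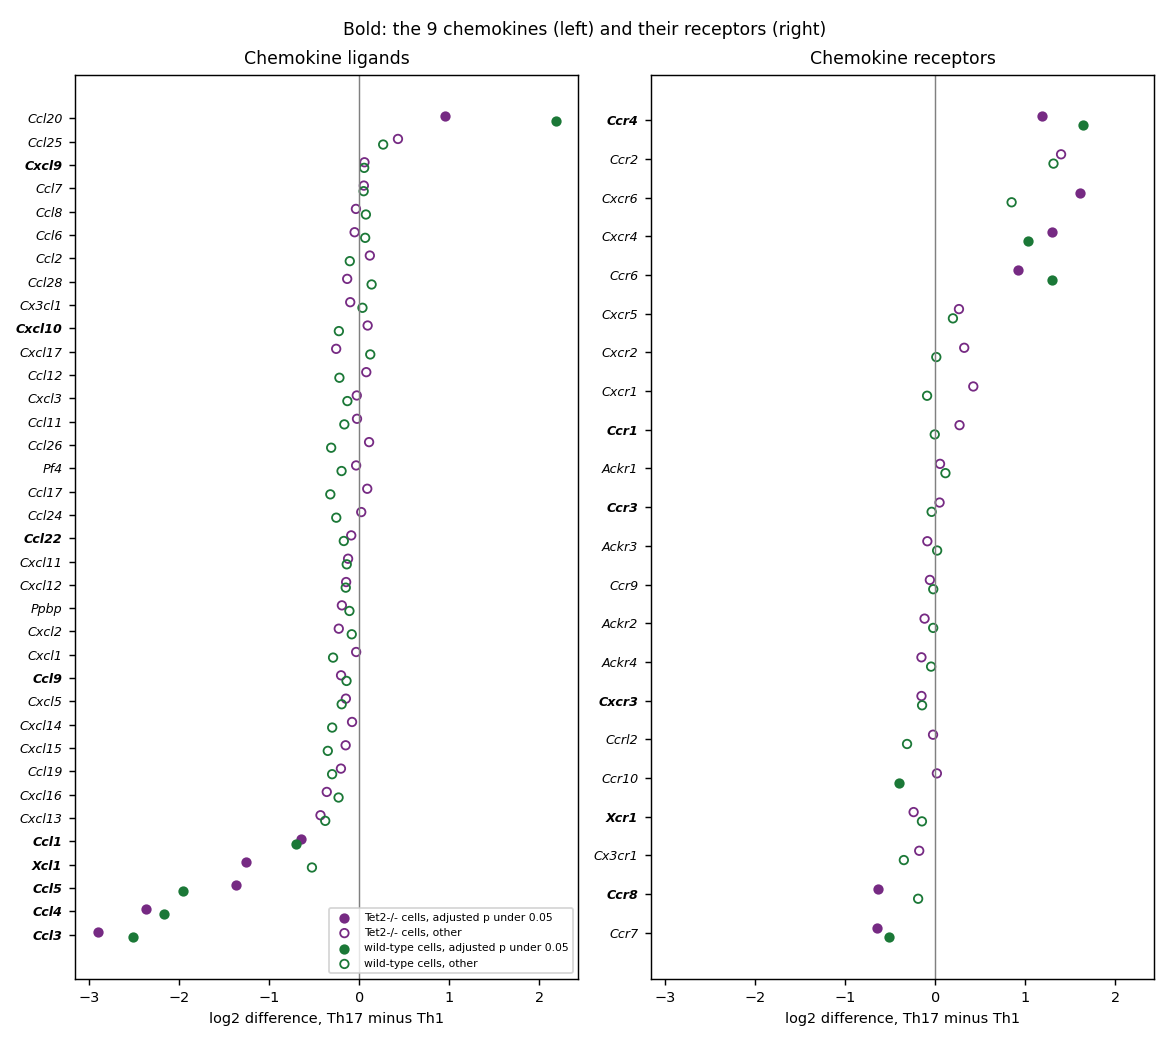
Log2 difference, Th17 minus Th1, of chemokine ligands (left) and chemokine receptors (right) in Tet2-/- and wild-type cells. Filled points passed a limma adjusted p under 0.05, and bold names are the 9 chemokines and their receptors. Ccl3, Ccl4 and Ccl5 lie left of the other ligands, Ccl20 lies right of them, and Ccr4 lies at 1.18 and 1.64.

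Among receptors of the 9 chemokines, 6 were analysed: Ccr1, Ccr3, Ccr4, Ccr8, Cxcr3 and Xcr1. Ccr4, the receptor of Ccl22, read 10.90 and 10.72 in Th17 Tet2-/- cells and 11.33 and 11.35 in Th17 wild-type cells, against 9.86 and 9.40 in Th1 Tet2-/- cells and 9.66 and 9.74 in Th1 wild-type cells. It was higher in Th17 cells by 1.18 in Tet2-/- cells (limma adjusted p = 0.000379) and by 1.64 in wild-type cells (limma adjusted p = 3.32e-05). Ccr8, the receptor of Ccl1, averaged 7.03 in Th17 Tet2-/- cells against 7.67 in Th1 Tet2-/- cells. It was called lower with its ligand in Tet2-/- cells (-0.64, limma adjusted p = 0.00365) and not in wild-type cells (-0.19, limma adjusted p = 0.335), and the difference of these was -0.45 (limma adjusted p = 0.999). Cxcr3 differed by -0.16 and -0.15, Xcr1 by -0.24 and -0.15, Ccr1 by 0.27 and -0.01 and Ccr3 by 0.05 and -0.04 in Tet2-/- and wild-type cells, and none of the 4 was called. Of 16 other chemokine receptors, 3 were called higher and 1 lower in Tet2-/- cells and 2 higher and 2 lower in wild-type cells. The shares over all genes were 7.14% higher and 3.29% lower in Tet2-/- cells, and 5.3% and 3.17% in wild-type cells. Cxcr6 was higher by 1.61 in Tet2-/- cells and was not called in wild-type cells. Ccr6, the receptor of Ccl20, was higher by 0.91 and 1.29, Cxcr4 by 1.30 and 1.03, and Ccr7, which guides T cells to lymph nodes, fell by 0.65 and 0.52 in Tet2-/- and wild-type cells.

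Among 11 genes for products that helper and killer T cells release along with Ccl3, Ccl4 and Ccl5, 6 were called lower in Th17 Tet2-/- cells and 5 in Th17 wild-type cells, and none higher, with median differences of -0.79 and -0.40. Ifng, which encodes interferon-γ, read 6.00 and 6.06 in Th17 Tet2-/- cells against 10.43 and 10.18 in Th1 Tet2-/- cells (-4.28). It read 6.07 and 6.01 in Th17 wild-type cells against 11.56 and 11.89 in Th1 wild-type cells (-5.68). Gzmb, the protease granzyme B, differed by -4.66 and -4.84, Il3 by -2.31 and -3.35 and Fasl by -1.64 and -1.68 in Tet2-/- and wild-type cells. Of 11 measured interferon-γ target genes, 9 were called lower in Tet2-/- and 7 in wild-type cells (medians -0.83 and -0.68), among them Iigp1, a GTPase against intracellular pathogens, at -3.97 and -3.53. For comparison, 3.29% of all genes were called lower and 7.14% higher in Tet2-/- cells, and 3.17% and 5.3% in wild-type cells. Cxcl9 and Cxcl10, textbook targets of interferon-γ, were not called in either genotype.

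Genes for the regulators of chemokine transcription gave mixed counts. Beside them, 7.14% of all genes were called higher and 3.29% lower in Tet2-/- cells, and 5.3% and 3.17% in wild-type cells. Of 15 measured lineage factors, 6 were called higher and 6 lower in Th17 Tet2-/- cells, and 6 higher and 5 lower in Th17 wild-type cells. Tbx21, which encodes the Th1 factor T-bet, read 6.95 and 7.31 in Th17 Tet2-/- cells and 7.46 and 7.89 in Th17 wild-type cells, against 10.44 and 10.42 in Th1 Tet2-/- cells and 10.27 and 10.20 in Th1 wild-type cells. Its differences were -3.30 (limma adjusted p = 1.06e-07) in Tet2-/- and -2.56 (limma adjusted p = 1.13e-06) in wild-type cells. The lineage factor genes Maf and Rora were called higher in Th17 cells. Maf rose by 3.52 and 3.65 and Rora by 2.42 and 2.13 in Tet2-/- and wild-type cells. Of 9 measured genes for NF-κB factors and their inhibitors, 3 were called lower in Tet2-/- and 1 in wild-type cells. Nfkb2 was called in each genotype and fell by 0.93 and 0.74. Nfkbib (-0.52) and Nfkbie (-0.58), which encode inhibitors of NF-κB, were called in Tet2-/- cells only. No other gene of that list was called in either genotype. Of 9 measured STAT and interferon regulatory factor genes, 2 were called lower in each genotype and 1, Irf2, higher in Tet2-/- cells (0.43). Irf8 and Irf1 encode factors that act on interferon-induced promoters, and Irf8 differed by -1.97 and -1.99 and Irf1 by -1.73 and -1.05. Of 15 NFAT, AP-1 and Egr genes, 1 was called higher and 1 lower in Tet2-/- cells, and 2 higher and none lower in wild-type cells. Nfatc3 was called higher in each genotype, by 0.89 in Tet2-/- and 0.50 in wild-type cells. Of 5 genes for enzymes and carriers that process chemokines, only Dpp4, a protease that trims the ends of several chemokines, was called, at 1.46 and 1.43 in Tet2-/- and wild-type cells.

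Markers of other cells were read beside these differences, and their part in the result was not tested. Calls in either direction covered 10.4% of all genes in Tet2-/- and 8.47% in wild-type cells. Of 12 myeloid markers 1, Cd68, had group means above the array median, and the list averaged 5.52 to 5.67 on Th17 arrays and 5.74 to 5.86 on Th1 arrays. Mpeg1, a macrophage gene, was the 1 myeloid marker called, lower in Th17 cells by limma at -1.02 in Tet2-/- and -0.69 in wild-type cells. The macrophage genes Lyz2, at 4.66 to 5.06, and Adgre1, at 4.65 to 4.97, were below the array median on all 8 arrays. The 12 dendritic markers averaged 6.09 to 6.13 on Th17 arrays and 6.42 to 6.59 on Th1 arrays. Of these, 3 were called lower in Th17 Tet2-/- cells, namely Cd83 (-1.76) and the class II genes H2-Ab1 (-1.18) and H2-Eb1 (-0.45), and 1 in wild-type cells, Cd83 (-1.78). The 9 CD8 and natural killer cell markers averaged 5.56 to 5.74 on Th17 arrays and 6.18 to 6.35 on Th1 arrays. Nkg7, a granule protein, was called lower at -4.87 and -4.53 and Eomes, a T-box factor, at -1.36 and -1.31 in Tet2-/- and wild-type cells, while Klrd1, a lectin-like receptor, was called higher in Tet2-/- cells (1.74). The natural killer cell genes Ncr1 and Klrb1c read 4.22 to 4.82 and 3.94 to 4.27 over all arrays. The 7 measured B cell markers averaged 5.23 to 5.50 over all arrays. The 10 stromal markers averaged 6.57 to 6.87 on Th17 arrays and 6.37 to 6.50 on Th1 arrays. Among them Lum, a matrix proteoglycan, was called higher at 2.87 and 1.78 and Pecam1, an adhesion molecule, at 1.13 and 1.32 in Tet2-/- and wild-type cells. Dcn, another proteoglycan, was called higher in Tet2-/- cells (1.01), and Sparc was called lower at -1.06 and -0.75.

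The series asks what the loss of Tet2 does to gene expression in each helper culture. In Th1 cells, none of the 9 chemokine genes was called between Tet2-/- and wild-type cells by limma, and 1 of all 19938 genes was (0.00502%), namely Ifng, which fell by 1.42 (limma adjusted p = 0.00391). At an unadjusted p under 0.05, 2 of the 9 and 1145 of all genes passed. The member that stood farthest out was Xcl1, whose 2 Th1 Tet2-/- arrays (8.72 and 8.46) lay above its 2 Th1 wild-type arrays (7.79 and 7.89). Its difference of 0.75 (1.68-fold, 95% interval 0.32 to 1.18) ranked sixth from the highest of the table, and its unadjusted limma p was 0.00239, against an adjusted p of 0.824. Cxcl10 was next, at -0.31 (95% interval -0.53 to -0.08, limma unadjusted p = 0.0124, adjusted p = 0.824), with its Tet2-/- arrays below its wild-type arrays. Ccl5 differed by -0.27 (95% interval -0.58 to 0.05), again with Tet2-/- arrays below, and by -0.17 without Th1 wild-type replicate 2. The groups of the other 6 members overlapped, with differences of -0.07 for Cxcl9, -0.06 for Ccl1 and for Ccl22, -0.05 for Ccl3, -0.01 for Ccl4 and 0.04 for Ccl9. The arrays of the genotypes thus did not overlap for 3 of 9 members, 1 higher and 2 lower, against 32.7% of all genes, 18.3% higher and 14.4% lower.

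In Th17 cells, none of the 9 and none of all 19938 genes was called by limma (0%), while at an unadjusted p under 0.05 there were 2 of the 9 and 848 of all genes. Ccl3 read lower on both Tet2-/- arrays (10.08 and 10.33) than on both wild-type arrays (10.65 and 10.64). Its difference was -0.44 (1.36-fold, 95% interval -0.76 to -0.12, limma unadjusted p = 0.0104, adjusted p = 0.956). Ccl5 read higher on both Tet2-/- arrays, at 0.32 (1.25-fold, 95% interval 0.01 to 0.64, limma unadjusted p = 0.0451, adjusted p = 0.999). It was 0.51 without Th17 Tet2-/- replicate 1 and 0.13 without Th17 Tet2-/- replicate 2. Ccl4 differed by -0.21 (95% interval -0.71 to 0.28), with both Tet2-/- arrays below the wild-type arrays. The other 6 members overlapped between genotypes, with differences of -0.07 for Cxcl9, -0.02 for Ccl9, -0.00 for Ccl1, 0.01 for Xcl1 and for Cxcl10 and 0.02 for Ccl22. Arrays did not overlap for 3 of 9 members, 1 higher and 2 lower, against 33.2% of all genes, 19.9% higher and 13.3% lower.

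The Th17 values stand beside unequal sex-linked transcripts. Without the 2 Th17 arrays highest and lowest in Y-linked level, which leaves 1 array of each genotype, the Th17 difference of Ccl5 was 0.11 and that of Xcl1 was -0.52, against 0.01 for Xcl1 on all arrays. With a covariate for the Y-linked level in the fit, these were 0.18 for Ccl5 and -0.28 for Xcl1.

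**Figure D4:**
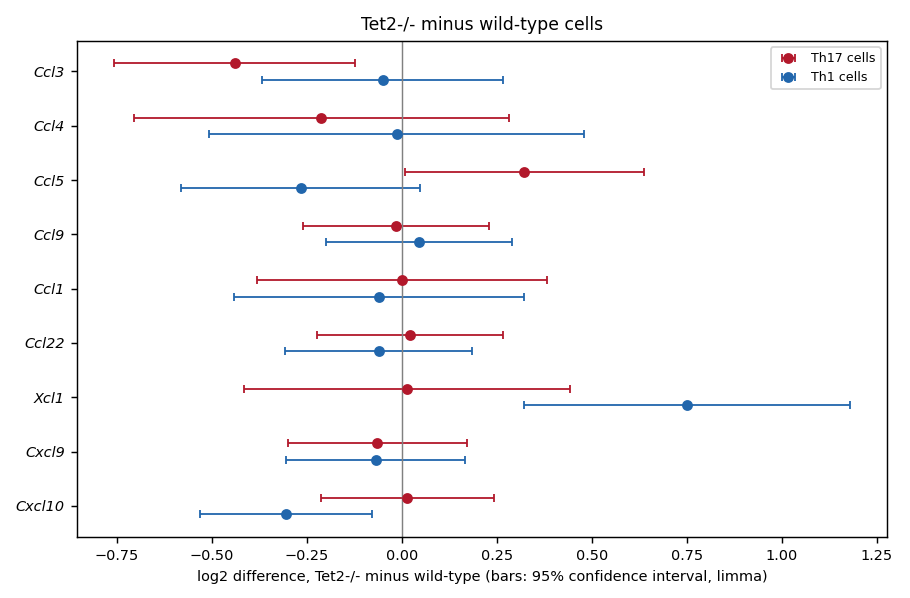
Log2 difference, Tet2-/- minus wild-type, of the 9 chemokine genes in Th17 and in Th1 cells. Points are limma estimates from 2 arrays a group and bars are 95% confidence intervals. None passed an adjusted p under 0.05, and the estimates farthest from 0 are Xcl1 in Th1 cells at 0.75 and Ccl3 in Th17 cells at -0.44.

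The genotype difference was compared between the cultures for all 9 members. The Th17 effect minus the Th1 effect was 0.59 for Ccl5 (95% interval 0.15 to 1.03, limma unadjusted p = 0.0134) and -0.74 for Xcl1 (limma unadjusted p = 0.021). It was -0.39 for Ccl3 (95% interval -0.84 to 0.06) and 0.32 for Cxcl10 (95% interval -0.00 to 0.64). The other values were -0.20 for Ccl4, -0.06 for Ccl9, 0.00 for Cxcl9, 0.06 for Ccl1 and 0.08 for Ccl22. Without Th17 Tet2-/- replicate 1 the value of Xcl1 was -0.40 and that of Ccl3 -0.26, and without Th1 Tet2-/- replicate 1 that of Ccl3 was -0.21. All 9 had a limma adjusted p of 0.999, and none of all genes was called by limma (0%), with 908 at an unadjusted p under 0.05. Of the listed receptors, regulators and T cell products, none other than Ifng in Th1 cells was called between genotypes. Il3 stood at -1.13 (limma adjusted p = 0.179) and Prdm1 at -0.77 (limma adjusted p = 0.176) in Th1 Tet2-/- cells relative to wild-type. In Th17 cells Lta stood at -0.95 (limma adjusted p = 0.178) and Bcl6 at 0.75 (limma adjusted p = 0.366). The receptors Ccr4, at -0.53 (limma adjusted p = 0.762), and Ccr8, at -0.41 (limma adjusted p = 0.742), differed less in Th17 Tet2-/- cells relative to wild-type. Ccl20, a ligand outside the 9, stood at -1.01 there (limma adjusted p = 0.224), rank 4 from the lowest of the table. The difference of effects of Ccl20 was -1.23 (limma adjusted p = 0.548), so neither was called.

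Genes whose profiles lay closest to a member were found for the 4 members that spanned at least 1 log2 unit. Likeness was the root mean square difference of levels over the 8 arrays, each gene centred on its own mean, among 17057 genes, leaving out predicted genes, clones and small RNAs. Closest to Ccl3 were Tbx21 (0.21 log2 units), Penk, which encodes the opioid precursor proenkephalin (0.23), and Gbp4, a guanylate-binding protein (0.27). Closest to Ccl4 were Gpm6b, a membrane glycoprotein (0.20), Irf8 (0.26) and Ccl3 itself (0.29). Closest to Ccl5 were Usp18, an interferon-induced protease (0.16), Il12rb2, a chain of the IL-12 receptor (0.20), and Fasl (0.23). Closest to Xcl1 were Sparc, a matrix protein (0.22), Tm4sf5 (0.24) and Utf1 (0.25). Sparc read 7.09 and 6.89 on average in Th17 Tet2-/- and wild-type cells and 8.15 and 7.64 in Th1 Tet2-/- and wild-type cells, so like Xcl1 it read highest in Th1 Tet2-/- cells. These are descriptions over 8 arrays, in 4 groups of 2.

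**Figure D5:**
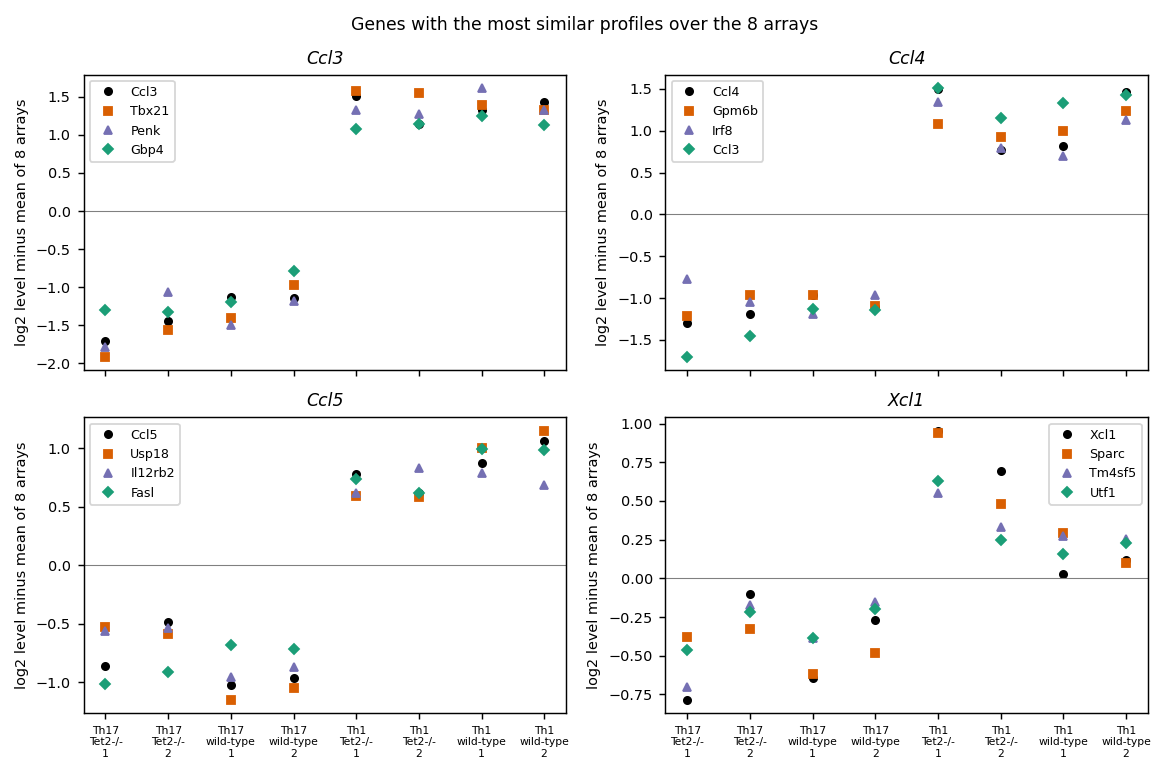
Log2 level minus the mean of the 8 arrays for Ccl3, Ccl4, Ccl5 and Xcl1 and the 3 genes most like each, by array, from Th17 Tet2-/- replicate 1 to Th1 wild-type replicate 2. Black points are the chemokine. Genes beside Ccl3, Ccl4 and Ccl5 lie below 0 on the 4 Th17 arrays and above 0 on the 4 Th1 arrays, with Xcl1 highest on the Th1 Tet2-/- arrays.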

How the data were processed

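Total RNA was labelled with biotin and read on Affymetrix arrays. The authors deposited 1 log2 value per probeset and array, using RMA and Partek according to the submitters' processing notes. Versions, filters and the log base are not given in the sources used here. Values ran from 2.71 to 14.1, which was read as a log2 scale. Of 35556 probesets, 21789 had 1 symbol in the annotation, 1621 several and 12146 none listed. Where a gene had several such probesets, that with the highest mean level represented it. This gave 19938 genes, and no array or dim gene was left out.

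The R package limma (version 3.58.1, under R 4.3.3) fitted 4 group means to the 8 arrays, with variances moderated by eBayes along a trend in intensity. The fit had 4 residual and 8.44 prior degrees of freedom. Tests were two-sided, and p values were adjusted by Benjamini-Hochberg over all 19938 genes. SE and 95% intervals come from this fit, and SD is the spread of 2 arrays. The number of arrays limits the precision.

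The members and gene lists were chosen with earlier results of these data known. All members are named in every comparison, and between Th17 and Th1 cells also the 6 receptors analysed and, for other lists, some of the up to 4 genes with the smallest unadjusted p. Between genotypes, the listed genes named were likewise some of the up to 4 with the smallest unadjusted p. Ccl6, a neighbour of the members, the Th1 marker Il18r1 and the single markers of other cells were named after their values were seen. The alternatives were other choices of probeset, scaling, variance model and arrays.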

Additional observations from a re-analysis of the deposited data

How the results depend on the processing

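The comparisons were repeated under 18 alternatives, 8 of which left out 1 array, and the difference of effects under 17, since it needs all 4 groups. Of 801 values for the members, 748 kept their direction and their side of the threshold, 11 lost their call and 42 turned sign. Ccl3, Ccl4 and Ccl5 stayed called lower in Th17 cells under all 18 in each genotype, as did Xcl1 in Tet2-/- cells (limma adjusted p 0.000158 to 0.0421). Xcl1 in wild-type cells was called under none (0.0596 to 0.439). All 11 lost calls were Ccl1, called under 12 alternatives in Tet2-/- cells (limma adjusted p 0.0119 to 0.287) and 13 in wild-type cells (0.0138 to 0.172). Beside left-out arrays, it was lost with all probesets tested (0.16 in Tet2-/- and 0.139 in wild-type cells), with a Y-linked covariate (0.0692 in Tet2-/- cells) and without the 2 Th17 arrays highest and lowest in that level (0.125 and 0.0984). The Xcl1 genotype difference in Th1 cells was 0.62 to 0.88 throughout (limma adjusted p 0.421 to 0.97). In Th17 cells the genotype differences turned sign for Ccl1 with quantile normalization (0.0018), arrays centred on their medians (0.0012) and without those 2 arrays (0.011). They also turned for Ccl9 with the covariate (0.018) and without those arrays (0.081), and for Xcl1 (-0.28 and -0.52). Without those arrays the Th17 minus Th1 difference of Cxcl9 in Tet2-/- cells was -0.0079, and the difference of effects was 0.037 for Ccl9 and -0.063 for Cxcl9 (-0.038 with the covariate). The cause was not tested.

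With 1 array left out, the Th1 genotype differences spanned -0.33 to 0.20 for Ccl1, -0.23 to 0.13 for Ccl3, -0.38 to 0.35 for Ccl4, -0.055 to 0.14 for Ccl9, -0.17 to 0.04 for Ccl22 and -0.14 to 0.0050 for Cxcl9. Those in Th17 cells spanned -0.073 to 0.072 for Ccl1, -0.085 to 0.053 for Ccl9, -0.036 to 0.077 for Ccl22, -0.33 to 0.35 for Xcl1 and -0.021 to 0.049 for Cxcl10. The Th17 minus Th1 difference of Cxcl9 in Tet2-/- cells spanned -0.018 to 0.13. The difference of effects spanned -0.20 to 0.33 for Ccl1, -0.57 to -0.21 for Ccl3, -0.56 to 0.17 for Ccl4, 0.40 to 0.78 for Ccl5, -0.16 to 0.039 for Ccl9, -0.022 to 0.19 for Ccl22, -1.08 to -0.40 for Xcl1, -0.071 to 0.078 for Cxcl9 and 0.28 to 0.36 for Cxcl10. The Th17 genotype difference of Ccl5 spanned 0.13 to 0.51. Groups left with 1 array are assumed to vary like the others.

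Over all genes, the 2078 Th17 to Th1 calls in Tet2-/- cells became 1064 with all probesets tested, 975 without the 2 arrays and 815 to 2383 with 1 array left out. The 1689 in wild-type cells became 622, 808 and 667 to 1560. The single Th1 genotype call became 0 with all probesets, with only the 4 arrays compared and without the 2 arrays, and 0 to 2 with 1 array left out. The 0 calls in Th17 cells became 2 with dim genes left out and 0 to 9 with 1 array left out. For the difference of effects 0 to 4 were called. The labels do not say whether the replicate numbers pair the samples. Correlations of replicate deviations between groups lay between -0.189 and 0.0534, which cannot settle whether samples shared a source. The replicate block left 5 members called in Tet2-/- and 4 in wild-type cells, among 1810 and 1411 genes.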
